A study of Mus musculus with 19 samples.

Results

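The aorta library was 1 of 19 libraries of total RNA, each from a different tissue. The labels give every group as male C57BL/6J mice aged 8 weeks and fed chow, and name no treatment or transgene. It was compared with the 12 other tissues of the same expression table, which were brain, colon, eye, heart, kidney, liver, parathyroid, skeletal muscle, stomach, testis, thymus and white adipose tissue (WAT). The 6 remaining tissues, bone, brown adipose tissue (BAT), intestine, lung, skin and spleen, came from a second table and were brought in only where stated. Members of the comparison were the genes at or above 1 FPKM in the aorta, where FPKM counts a gene's fragments per kilobase of its length and per 1000000 reads assigned to genes. There were 14099 such genes among 54532 gene rows. Each tissue had 1 library, so there is no replicate error, and no p-value was computed. Intervals beside a fold are exact 95% binomial intervals on the reads and cover counting error only. Whether the labels' aorta sample came from 1 animal or several, and how much surrounding fat was removed, is not given in the sources used here.

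The aorta is the main elastic artery. Its wall has an inner endothelium that faces the blood, a thick media in which smooth muscle cells alternate with sheets of elastic fibres, and an outer adventitia of fibroblasts that runs into perivascular fat. Arterial smooth muscle contracts through smooth muscle myosin and actin, and its contractile genes are switched on by serum response factor together with the cofactor myocardin, which act at a DNA element called the CArG box. The same cells secrete elastin and the microfibril and crosslinking proteins that turn it into fibres.

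The 6 marker genes of the aorta were read first. The highest level of the 13 tissues was in the aorta for Myh11, Cnn1, Tagln, Eln, Myocd and Lmod1 alike. Some library facts went beside the label. Xist, the non-coding RNA of the inactive X chromosome, stood at 22.1 FPKM in the aorta, 97.5 in the eye, 90.9 in the kidney and 59.7 in the parathyroid, and at no more than 0.0683 in the 15 other libraries. The summed FPKM of 4 Y-linked genes was 80.5 in the aorta, 35.7 in the parathyroid, 0.0894 in the eye and 0.140 in the kidney. The label gives all animals as male, and the aorta library held both kinds of transcript. It also held transcripts of the thyroid and parathyroid glands, with thyroglobulin (Tg) at 1.64% of its reads against 17.2% in the parathyroid library. The aorta total was 14837420 assigned reads, the totals of the 13 tissues ran from 11135276 to 17263334, and those of the second table from 14949361 to 16683614.

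A gene was called enriched in the aorta when its level there was 4-fold or more above that of the highest other tissue, after 0.1 FPKM was added to both. Of the 14099 genes, 235 were called, which is 1.67%, and the aorta had the highest level of the 13 tissues for 1451 genes, or 10.3%. The called genes had a median aorta level of 64.2 FPKM, 102 of them stood at 100 FPKM or more, and together they took 15.3% of the aorta reads. The ratio was 10 or more for 84 of them. The second-highest tissue was most often the eye (52 genes), the heart (36), WAT (30) or the colon (29). By annotation 160 were protein-coding, 16 were lincRNAs, 14 were miRNA genes and 14 were processed pseudogenes, and 66 of all called genes were predicted gene models that are counted but not named. The ratios ran through the threshold without a gap: Per2 (4.05), Myo1h (4.03) and Csrp1 (4.02) lay just inside it and Stk38l (3.99), Mrgprf (3.99) and Wfdc1 (3.93) just outside. For 55 called genes the lower bound of the counting interval was under 4-fold. Without the eye, kidney and parathyroid libraries, which carried Xist, 358 genes were called. Leaving libraries out can only add calls, so the 235 were among them by the rule.

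**Figure D1:**
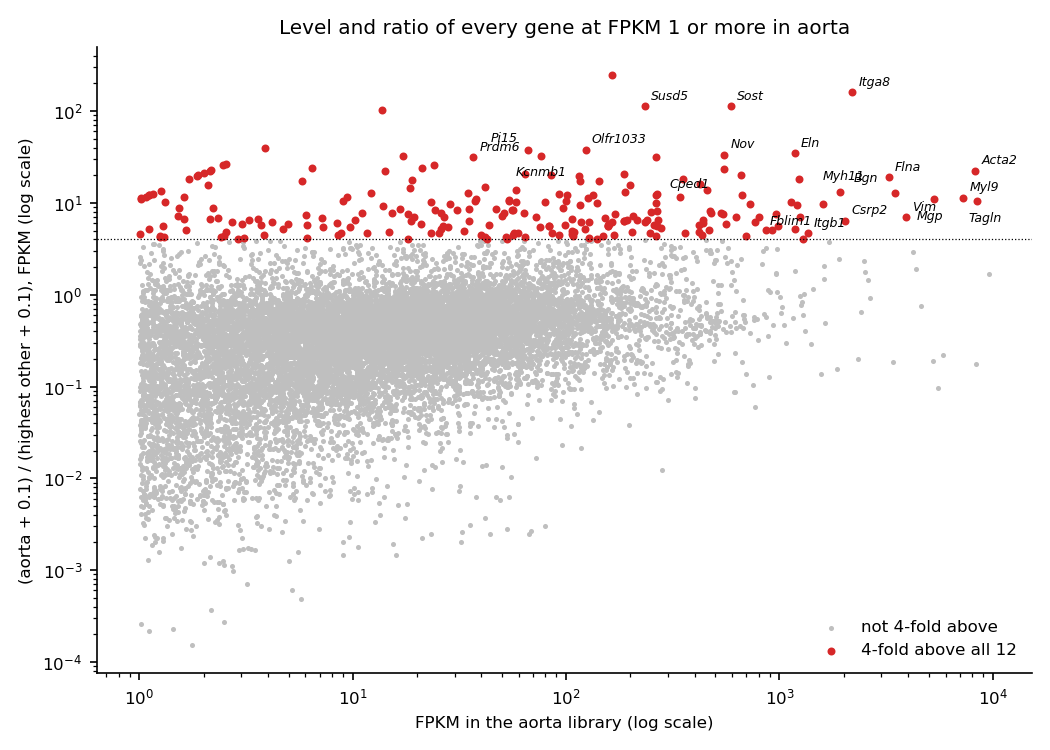
Aorta level in FPKM (horizontal, log scale) against the ratio of the aorta to the highest of the 12 other tissues, with 0.1 FPKM added to both (vertical, log scale), for the 14099 genes at 1 FPKM or more; each point is a gene. Of the named genes Itga8, Susd5 and Sost stand highest on the ratio axis, and Tagln, Acta2 and Myl9 stand farthest to the right.

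The contractile genes of smooth muscle were among the most abundant messages of the aorta. All 20 contractile genes were above 1 FPKM. Of them 14 were highest in the aorta (against 10.3% of all genes tested) and 9 were called (against 1.67%). Their median log2 ratio to the highest other tissue was 1.86, against -3.21 over the 26586 genes that reached 1 FPKM in any of the 13 tissues. Over the 14099 genes at 1 FPKM or more in the aorta, as all 20 were, the median was -1.38. A lower bulk level of a gene can mean fewer cells of a type or less RNA per cell, and these libraries cannot tell the alternatives apart.

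The filament proteins led the list. Tagln, which encodes the actin-binding protein transgelin, stood at 8421 FPKM in the aorta, and the 12 other tissues ran from 7.07 to 811 with a median of 42.1. Its aorta level was 10.4-fold (10.2 to 10.6) that of the colon, the highest of them. Acta2, the smooth muscle alpha-actin, stood at 8281 FPKM against 1.63 to 368 (median 26.5), which was 22.5-fold (22.0 to 23.1) over the colon. The colon was the next tissue for each of the 5 genes of this group described here, and the stomach came after it. Myl9, the regulatory light chain of smooth muscle myosin, stood at 7273 FPKM against 9.25 to 639 (median 68.9), 11.4-fold (11.05 to 11.7) over the colon. Myh11, the smooth muscle myosin heavy chain, stood at 1912 FPKM against 0.774 to 146 (median 11.5), 13.1-fold (12.8 to 13.4) over the colon. Lmod1, a leiomodin that nucleates actin filaments, stood at 198 FPKM against 0.0815 to 12.4 (median 1.97), 16.0-fold (14.6 to 17.4) over the colon.

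The largest ratio of the list belonged to Itga8, the integrin alpha 8 chain, which pairs with the beta 1 chain. It stood at 2199 FPKM in the aorta and at 1.03 to 13.6 (median 3.03) in the 12 other tissues, and the fold over the thymus was 162 (148 to 178). In the lung, from the second table, it stood at 140.2 FPKM. Also called were Cald1 (caldesmon, 1206 FPKM, 9.53-fold over the liver), Smtn (smoothelin, 964 FPKM, 7.55-fold over the heart) and Mylk (myosin light chain kinase, 771 FPKM, 6.22-fold over the colon). Mylk stood at 265 FPKM in the intestine, and it was the 1 contractile gene whose call ended when the 6 further tissues were added.

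The remaining 11 contractile genes fell short of 4-fold. Cnn1, calponin 1, stood at 1699.7 FPKM in the aorta and at 456 in the colon, a fold of 3.73 (3.62 to 3.84). Actg2, the gamma actin known for visceral smooth muscle, went the other way. It stood at 248 FPKM in the aorta, 543 in the colon and 392 in the stomach, so that the aorta was at 0.457 of the colon (0.438 to 0.477). Des, the intermediate filament desmin, stood at 109 FPKM in the aorta, 434 in the colon, 254 in the stomach and 1876 in skeletal muscle. The tropomyosins Tpm1 (1559.9 FPKM) and Tpm2 (1633 FPKM) were higher in skeletal muscle, at 11525 and 3299.5 FPKM. The same genes are used in striated muscle.

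**Figure D2:**
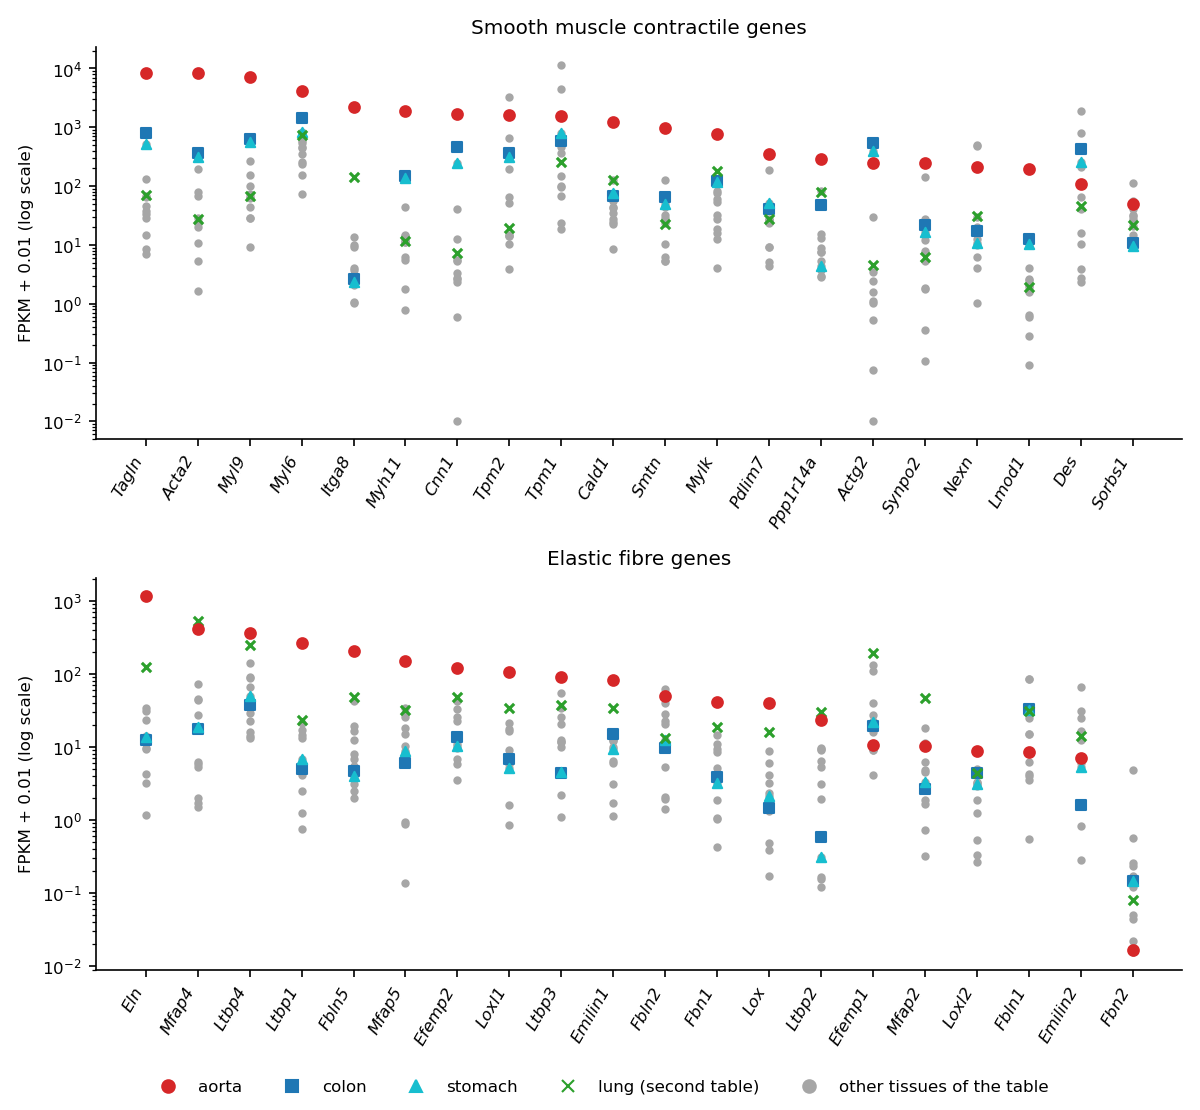
Level of contractile and elastic fibre genes (FPKM plus 0.01, log scale) in the aorta (red), in colon, stomach and lung (marked) and in the other tissues (grey), 1 point per library. The aorta point is the highest for Acta2, Myh11, Itga8 and Eln and lies below colon and stomach for Actg2.

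Since serum response factor acts at CArG boxes, the 250 bases before the RefSeq transcription start were read for called genes with an entry in the RefSeq promoter table (GRCm38.p6). A CArG box was searched as CC, 6 bases of A or T, then GG, which reads alike on both strands, and a CArG-like match allowed 1 G or C among the 6. The windows of Acta2 (chr19:34255374-34255623, minus strand), Myl9 (chr2:156775214-156775463, plus strand), Vcl (chr14:20929148-20929397, plus strand) and Filip1l (chr16:57548992-57549241, plus strand) are shown 5′ to 3′, ending at the base before the start, with matches in capitals. Acta2 and Myl9 are shown as the most abundant contractile genes with an entry, and Vcl and Filip1l as other called genes with a full box.
Acta2: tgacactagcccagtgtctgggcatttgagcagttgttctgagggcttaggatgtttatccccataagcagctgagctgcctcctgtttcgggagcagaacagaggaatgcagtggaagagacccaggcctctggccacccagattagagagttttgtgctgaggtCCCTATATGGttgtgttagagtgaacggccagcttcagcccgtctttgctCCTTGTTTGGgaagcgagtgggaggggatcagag
Myl9: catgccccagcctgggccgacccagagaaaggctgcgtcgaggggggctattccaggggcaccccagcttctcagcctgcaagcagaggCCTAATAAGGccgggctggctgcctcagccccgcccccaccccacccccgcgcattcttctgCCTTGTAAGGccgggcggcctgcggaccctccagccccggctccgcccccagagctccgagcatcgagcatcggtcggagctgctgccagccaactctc
Vcl: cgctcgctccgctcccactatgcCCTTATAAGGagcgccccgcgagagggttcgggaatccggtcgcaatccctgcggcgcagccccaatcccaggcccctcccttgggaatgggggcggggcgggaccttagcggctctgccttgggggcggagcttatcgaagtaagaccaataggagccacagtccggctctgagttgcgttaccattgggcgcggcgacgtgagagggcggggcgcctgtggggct
Filip1l: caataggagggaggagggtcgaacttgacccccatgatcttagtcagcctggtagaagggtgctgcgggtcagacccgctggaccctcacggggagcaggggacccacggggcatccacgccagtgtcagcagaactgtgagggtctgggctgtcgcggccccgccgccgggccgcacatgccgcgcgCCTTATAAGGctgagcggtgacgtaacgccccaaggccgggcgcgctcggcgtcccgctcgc
Acta2 held 2 CArG-like matches, beginning 84 and 34 bases before the start, and no full box in this window. Myl9 held a full box at 161 bases and a CArG-like match at 99. Vcl, the adhesion protein vinculin (269 FPKM, 6.59-fold over the heart, 118 FPKM in the lung), held a full box at 227 bases, and Filip1l (216 FPKM, 6.58-fold over the stomach) held its box at 62. Lmcd1, a LIM domain protein (247 FPKM, 4.69-fold over skeletal muscle), also held a full box. A full box lay in 5 of 130 windows of 113 called genes (3.85%) and in 482 of 32851 windows in the table (1.47%). A CArG-like match lay in 14 of the 130 windows (10.8%) and in 7.24% of all windows. A match describes the letters and does not show a site in use.

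The regulators of smooth muscle genes ranged widely, also within a family. Of 21 regulators, 18 were at 1 FPKM or more. The aorta was highest for 7 (against 10.3% of all genes tested), and 4 were called (against 1.67%). Myocd, the myocardin gene, stood at 41.4 FPKM in the aorta and at 0 to 16.7 (median 0.167) elsewhere, 2.47-fold (2.26 to 2.70) over the heart. Against colon and stomach the Myocd folds were 52.7 (35.6 to 81.6) and 44.0 (32.6 to 61.1). Srf, the serum response factor gene, differed little from the heart, at 97.3 FPKM against 91.2, a fold of 1.07 with an interval of 0.991 to 1.15. The myocardin-related factors Mkl1 (14.95 FPKM) and Mkl2 (12.7 FPKM) were within the range of the other tissues.

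The called regulators were 2 Notch effectors, a T-box factor and a forkhead factor. Hey2, a Notch target that represses transcription, stood at 37.6 FPKM against at most 3.46 in the eye, 10.9-fold (9.11 to 13.1). Heyl, of the same family, stood at 109 FPKM against at most 22.6 in the parathyroid, 4.80-fold (4.43 to 5.22). Tbx18, known from mural cells and the epicardium, stood at 37.9 FPKM against at most 3.32 in the heart, 11.4-fold (9.47 to 13.9). Foxc2, which acts in arterial and lymphatic development, stood at 25.8 FPKM, 8.08-fold (6.78 to 9.68) over the eye, and its relative Foxc1 at 27.4 FPKM was 2.55-fold over the eye. The T-box factors Tbx2 (4.20 FPKM, 0.135 of the kidney) and Tbx20 (1.79 FPKM, 0.0438 of the heart) were below other tissues. Factors known from gut mesenchyme differed among themselves. Barx1 stood at 0.385 FPKM against 27.4 in the stomach, Nkx2-3 at 1.08 against 8.33 in the colon, and Hand2 at 0.659 against 24.2 in the heart. Foxf1 stood at 8.74 FPKM, 0.995 (0.852 to 1.16) of the thymus and close to the colon at 8.63.

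Elastic fibre genes were high alongside the muscle genes. Of 20 genes, 19 were at 1 FPKM or more, with a median log2 ratio of 1.42. The aorta was highest for 14 (against 10.3% of all genes tested), and 8 were called (against 1.67%). Eln, which encodes the elastin monomer, stood at 1178 FPKM in the aorta and at 1.17 to 34.0 (median 12.9) in the 12 other tissues. The aorta was 34.7-fold (33.0 to 36.5) above WAT, the next of them, and the lung stood at 124 FPKM. Ltbp1, a binding protein that anchors latent TGF-beta to microfibrils, stood at 263 FPKM, 12.2-fold (11.5 to 12.9) over WAT. The microfibril-associated genes Mfap4 (418 FPKM, 5.72-fold over the eye) and Mfap5 (149.5 FPKM, 4.35-fold over WAT) were called, as was Emilin1 (83.1 FPKM, 5.59-fold over the colon), whose product lies at the elastin surface.

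Some assembly and crosslinking genes were called. Fbln5, a fibulin needed to lay elastin on microfibrils, stood at 204 FPKM, 4.84-fold (4.63 to 5.07) over the kidney. The crosslinking enzymes Lox (40.1 FPKM) and Loxl1 (106 FPKM) were 4.54-fold and 4.97-fold above WAT and eye. The scaffold gene Fbn1 (41.9 FPKM, 2.84-fold over WAT) and Efemp2 (121 FPKM, 2.86-fold over the parathyroid) were highest in the aorta without a call. Fbn2, the fibrillin known from embryonic tissue, had 1 read. Addition of the 6 further tissues ended the calls of Mfap4 (531 FPKM in the lung), Lox (41.0 in the skin), Loxl1 (34.3 in the lung) and Emilin1 (35.5 in the bone), and left 4 called.

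Collagens and proteoglycans gave a mixed picture. All 29 genes were at 1 FPKM or more, with a median log2 ratio of 0.52. Of them 19 were highest in the aorta (against 10.3% of all genes tested) and 4 were called (against 1.67%). Mgp, the matrix Gla protein that holds back calcification of arteries, stood at 5272 FPKM against 5.89 to 480.2 (median 111), 10.98-fold (10.6 to 11.3) over the heart. The lung stood at 1466 FPKM for Mgp, and its call ended there. Bgn, the small proteoglycan biglycan, stood at 3493 FPKM against 12.6 to 270.0 (median 67.3), 12.9-fold (12.6 to 13.3) over the eye. Ogn (osteoglycin, 472 FPKM, 8.21-fold over the heart) and Vcan (versican, 55.8 FPKM, 8.48-fold over the brain) were also called. The fibrillar collagens of the list fell short of 4-fold. Col3a1 stood at 966 FPKM, 1.74-fold over WAT, and Col1a1 at 354 FPKM against 361 in the eye. Col3a1 and Col1a1 were both higher in the skin, at 3693 and 6505 FPKM. For Col1a2, Col5a1 and Col5a2 the aorta was highest of the 13 tissues, with log2 ratios of 1.09, 1.55 and 1.66. Dcn, the proteoglycan decorin, stood at 109 FPKM in the aorta and 603 in the eye, and Lum and Fmod were also highest in the eye. With the second table included, 2 genes of the list stayed called, and the median log2 ratio of the list was -0.80.

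**Figure D3:**
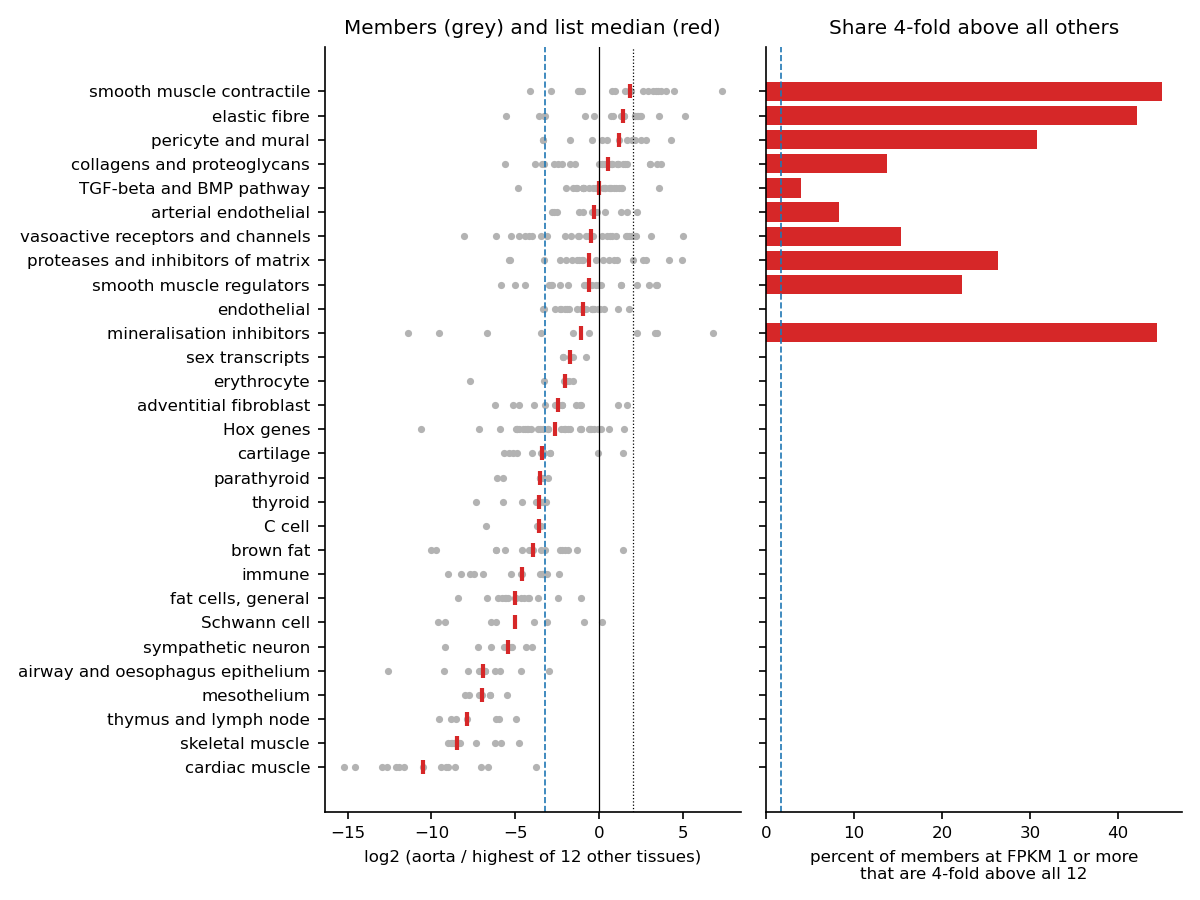
Log2 ratio of the aorta to the highest of the 12 other tissues for each member of the gene lists (left; grey points are genes, red ticks are list medians, the blue dashed line is the median of all genes that reach 1 FPKM in a tissue) and the share of members called (right; the dashed line is 1.67%). Contractile, elastic fibre and mural lists have medians above 0, and the fat, cardiac and immune medians lie left of that line.

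Endothelial genes were present and none was called. All 22 were at 1 FPKM or more. Of them 4 were highest in the aorta (against 10.3% of all genes tested) and 0 were called (against 1.67%). At that share, 0 calls among 22 genes does not show a lack of enrichment. Their median log2 ratio was -0.96, against -3.21 over all genes that reached 1 FPKM in any of the 13 tissues. Over the 14099 genes at 1 FPKM or more in the aorta, as all 22 were, the median was -1.38. Pecam1, an adhesion molecule of endothelial junctions, stood at 162 FPKM against 1.03 to 74.1 (median 20.9), 2.19-fold (2.10 to 2.29) over the thymus. Erg, an endothelial ETS factor, stood at 43.0 FPKM, 3.53-fold (3.14 to 3.98) over the heart. Vwf, the von Willebrand factor gene, stood at 51.2 FPKM, 1.24-fold over the heart, and Nos3, the endothelial nitric oxide synthase, at 10.9 FPKM, 1.05-fold (0.937 to 1.18) over it. Other endothelial genes were lower. Kdr, the VEGF receptor, stood at 5.02 FPKM in the aorta and 48.8 in the parathyroid, and Cdh5, the junctional cadherin, at 18.6 FPKM against 75.4 in the heart. The lung exceeded the aorta for Pecam1 (273 FPKM), Cdh5 (346) and Vwf (151).

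Genes of arterial endothelium lay on both sides of the next tissue, with a median log2 ratio of -0.31. Of 12 genes, 4 were highest in the aorta (against 10.3% of all genes tested) and 1 was called (against 1.67%). The called gene was Fbln5, which is also an elastic fibre gene. Bmx, an endothelial tyrosine kinase, stood at 9.74 FPKM, 3.27-fold (2.65 to 4.06) over the heart. Edn1, the endothelin 1 gene, stood at 7.78 FPKM, 1.31-fold over the parathyroid. Gja5, the gap junction protein connexin 40, stood at 16.4 FPKM against 19.2 in the heart, and Gja4, connexin 37, at 17.7 FPKM was 2.54-fold over WAT. Others were well below, with the Notch ligand Dll4 at 2.22 FPKM (0.171 of the parathyroid), the Notch target Hey1 at 5.81 FPKM (0.152 of the brain) and the semaphorin Sema3g at 3.07 FPKM (0.137 of the kidney).

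Mural cell genes, shared by pericytes and arterial smooth muscle, were high. All 13 were at 1 FPKM or more, with a median log2 ratio of 1.20. Of them 9 were highest in the aorta (against 10.3% of all genes tested) and 4 were called (against 1.67%). Rgs5, a regulator of G-protein signalling, stood at 1251 FPKM against 3.33 to 178 (median 54.7), 7.01-fold (6.83 to 7.21) over the heart. Cspg4, the NG2 proteoglycan, stood at 115 FPKM against at most 5.81 in the kidney, 19.8-fold (18.2 to 21.7). Mcam, an adhesion molecule, stood at 989 FPKM, 5.59-fold (5.41 to 5.78) over WAT. Pdgfrb, the PDGF receptor of mural cells, came just short at 49.9 FPKM and 3.88-fold over the heart. Genes known from pericytes of small vessels differed. Higd1b stood at 1.26 FPKM against 13.9 in WAT and 54.8 in the lung. The subunits of a potassium channel, Kcnj8 (17.4 FPKM, 1.15-fold over the heart) and Abcc9 (73.7 FPKM, 1.37-fold over skeletal muscle), were highest in the aorta.

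Receptors and channels of vascular tone differed in direction, also between members of a family. Of 31 genes, 26 were at 1 FPKM or more. The aorta was highest for 13 (against 10.3% of all genes tested), and 4 were called (against 1.67%). Kcnmb1, the beta subunit that tunes the large calcium-activated potassium channel of smooth muscle, stood at 76.1 FPKM against 0.0307 to 2.23 (median 0.249), 34.2-fold (28.1 to 41.9) over the colon. The pore gene Kcnma1 was not set apart, at 27.9 FPKM and 0.723 of the brain. The alpha-1D adrenergic receptor Adra1d (35.0 FPKM, 8.87-fold over the brain) and the serotonin receptor Htr1b (23.3 FPKM, 4.79-fold over the brain) were called. Their relatives were low, with Adra1a at 1.61 FPKM (5.41 in the heart), Adra1b at 0.916 FPKM (27.2 in the liver) and Htr2b at 0.0518 FPKM (2.35 in the colon). In the cyclic GMP pathway, Gucy1b1, a subunit of the nitric oxide receptor, stood at 168 FPKM (4.48-fold over the brain, called). Its partner Gucy1a1 stood at 110.3 FPKM (3.26-fold over the eye), and the natriuretic peptide receptor Npr1 at 289 FPKM (2.06-fold over the parathyroid). The clearance receptor Npr3 stood at 5.97 FPKM against 111 in WAT. The angiotensin receptor Agtr1a stood at only 2.26 FPKM, rank 12 of 13, with 89.7 in the liver, and its paralogue Agtr1b at 3.07 FPKM, 3.71-fold (2.35 to 6.05) over the stomach. The endothelin receptor Ednra stood at 2.99 FPKM against 12.7 in the heart.

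The adventitia and the surrounding fat were less visible. All 16 adventitial fibroblast genes were at 1 FPKM or more, with a median log2 ratio of -2.45. Of them 2 were highest in the aorta (against 10.3% of all genes tested) and 0 were called (against 1.67%). Those 2 were Fn1 (fibronectin, 860.0 FPKM, 3.19-fold over the liver) and Col14a1 (24.7 FPKM, 2.23-fold over the kidney). The fibroblast markers Pdgfra (8.67 FPKM) and Pi16 (17.6 FPKM) were within the range of the other tissues. Of 16 general fat cell genes 15 were at 1 FPKM or more and 0 were called (against 1.67% of all genes tested). The sum of the list was 713 FPKM in the aorta, 61.4 to 20133 in the 12 other tissues and 12610 in BAT, which puts the aorta at rank 8 of 13. Adipoq, the adiponectin gene, stood at 32.0 FPKM in the aorta and 1580.5 in WAT, a fold of 0.0202 (0.0184 to 0.0222). Lep, the leptin gene, stood at 0.623 FPKM against 252. Plin4, a lipid droplet coat gene that is not confined to fat, stood at 86.4 FPKM, 0.480 of WAT.

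Brown fat genes were partly present, with a sum far below that of BAT. Of 18 genes, 14 were at 1 FPKM or more, with a median log2 ratio of -3.93 for the list. The aorta was highest for 1 (against 10.3% of all genes tested), and 0 were called (against 1.67%). Ucp1, the uncoupling protein that defines brown fat cells, stood at 77.1 FPKM in the aorta, 359 in the thymus, 69.9 in the parathyroid, 0.145 in WAT and 2541 in BAT. Cidea, a lipid droplet gene of brown fat, stood at 43.0 FPKM, with 155 in the thymus, 43.1 in the parathyroid and 1538 in BAT. For Ucp1 the aorta came second to the thymus among the 13 tissues. For Cidea the thymus, the eye (50.02 FPKM) and, by a small margin, the parathyroid were above the aorta. Where these transcripts came from was not tested. Prdm16, a brown fat regulator also known from arterial smooth muscle and endothelium, had another order and stood at 27.5 FPKM in the aorta, 2.76-fold (2.55 to 3.001) over the parathyroid and above the 7.16 of BAT. The summed brown fat list was 307 FPKM in the aorta, rank 10 of 13, and 8689 in BAT.

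Thyroid and parathyroid transcripts formed a further group in the aorta library. Tg, the precursor of thyroid hormone, stood at 5505 FPKM in the aorta and 57706 in the parathyroid, while the median of the 12 other tissues was 0.228. The aorta level was 9.54% of the parathyroid level for Tg, 8.62% for Pth (parathyroid hormone, 621 FPKM), 8.88% for Calca (calcitonin and CGRP, 275 FPKM) and 8.72% for Chga (chromogranin A, 611 FPKM). Over the 23 genes of the thyroid, C cell and parathyroid lists the median was 8.77%. Single genes ran from 6.23% to 136% in the thyroid list, from 5.58% to 29.1% in the C cell list and from 6.20% to 17.7% in the parathyroid list. The highest share was that of Slc26a4, an anion exchanger, which stood at only 1.09 FPKM in the aorta. Of the 23, 0 were called (against 1.67% of all genes tested). Aorta values less 9.54% of the parathyroid values left 231 called genes, with the 9 contractile and 8 elastic fibre calls among them. This subtraction can only end calls, so all 231 were among the 235. Called genes already stood about 4-fold or more above the parathyroid, so few calls could change and the count tests little. The source of these transcripts was not tested.

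**Figure D4:**
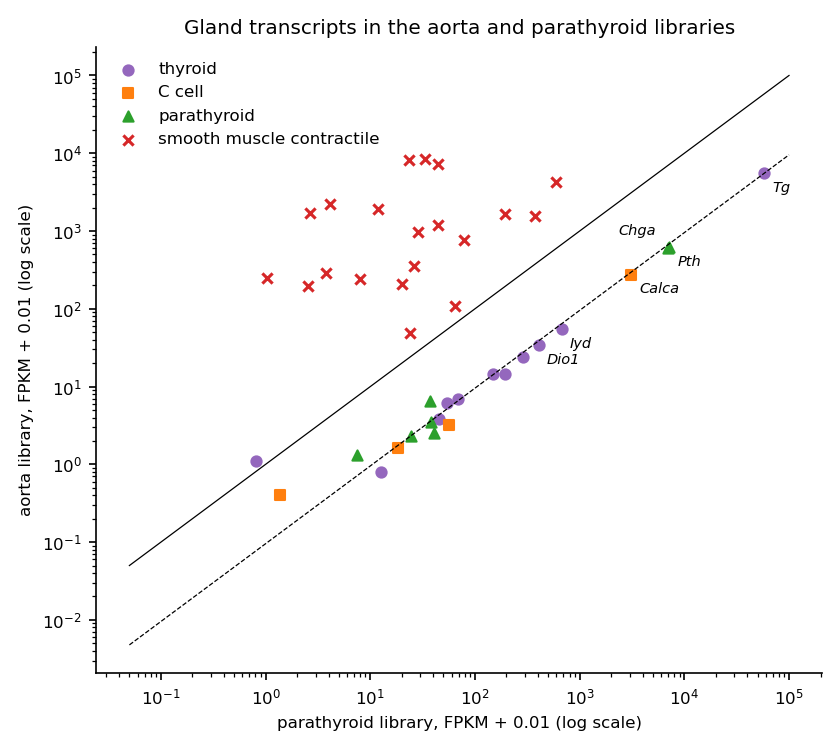
Aorta level against parathyroid level (FPKM plus 0.01, log scales) for most thyroid, C cell, parathyroid and contractile genes of the lists; the solid line marks equal levels and the dashed line the ratio of Tg. Tg, Pth, Chga and Calca lie along the dashed line, at 8.62% to 9.54% of the parathyroid level, some low genes stand off it, and contractile genes lie above the solid line.

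Markers of most other organs stood far below the tissue highest for them. Of 15 cardiac muscle genes 8 were at 1 FPKM or more, and their sum was 64.3 FPKM against 54799 in the heart. Nppa, the atrial peptide gene, had 0 reads, which allows up to 0.202 reads per 1000000, and Myh6, the cardiac myosin heavy chain, stood at 0.354 FPKM against 10914. Ryr2, the calcium release channel shared by heart and smooth muscle, was the highest of the list at 23.7 FPKM. The skeletal muscle list summed to 374 FPKM against 135204 in skeletal muscle, with Acta1 at 79.8 FPKM or 11.9% of the parathyroid library. That sum was above the median of the 12 other tissues, 59.8 FPKM. The immune list summed to 117 FPKM, rank 11 of 13, with the leukocyte gene Ptprc at 2.18 FPKM. Of sympathetic neuron genes the receptor gene Chrna3 had 0 reads, of mesothelial genes Lrrn4 had 0, and of 8 thymus and lymph node genes 0 reached 1 FPKM. The erythrocyte, Schwann cell, cartilage and airway and oesophagus epithelium lists also had 0 members called, against 1.67% of all genes tested. In sum, 3 of these lists were above the median of the 12 other tissues: erythrocyte (760 FPKM, median 409), Schwann cell (184, median 123) and cartilage (53.8, median 28.2). The airway and oesophagus list was below it (59.6, median 153). A single member held 159 FPKM of the Schwann cell sum, and a single member held 30.8 FPKM of the cartilage sum. The median log2 ratio was -2.01 for the erythrocyte list, -5.02 for the Schwann cell list and -3.41 for the cartilage list.

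TGF-beta signalling, which is central to inherited aneurysm of the aorta, was represented across its steps. Of 26 pathway genes 25 were at 1 FPKM or more. The aorta was highest for 13 (against 10.3% of all genes tested), and 1 was called, Ltbp1 (against 1.67%). The median log2 ratio was 0.03 and was -0.07 once the parathyroid share was taken off and -1.10 with the second table. Among ligands, Tgfb3 stood at 43.6 FPKM (2.01-fold over the eye) and Tgfb2 at 45.1 (1.17-fold over the eye). The type I receptor gene Tgfbr1 stood at 91.8 FPKM, 2.31-fold (2.18 to 2.45) over the parathyroid, and the type II receptor gene Tgfbr2 at 29.5 FPKM, 1.61-fold over the eye.

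Genes that limit mineralisation included some of the largest ratios. Of 10 genes, 9 were at 1 FPKM or more and 4 were called (against 1.67% of all genes tested): Mgp, Fbln5, Sost and Tnfrsf11b. Fbln5 is also counted in the elastic fibre list, where it was described as an assembly gene. The median log2 ratio of the list was -1.09, and 2 genes stayed called with the second table. Sost, which encodes the Wnt inhibitor sclerostin known from bone cells, stood at 592 FPKM in the aorta and at 0 to 5.16 (median 0.1002) in the 12 other tissues. The fold over the heart was 115 (97.6 to 136), and the bone library stood at 15.6 FPKM. Tnfrsf11b, the decoy receptor osteoprotegerin, stood at 23.2 FPKM, 10.7-fold (8.71 to 13.2) over the eye, with 9.14 FPKM in the bone. Against these, Spp1 (osteopontin) stood at 12.9 FPKM and 1313 in the kidney, and Abcc6, the liver transporter whose loss causes elastic fibre calcification, had 1 read.

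Matrix proteases and their inhibitors were partly enriched. Of 20 genes, 19 were at 1 FPKM or more. The aorta was highest for 9 (against 10.3% of all genes tested), and 5 were called (against 1.67%). Serpine2, protease nexin 1, stood at 801 FPKM, 7.11-fold (6.86 to 7.38) over the brain. The metalloproteinases Adamts8 (18.9 FPKM, 19.5-fold over the kidney), Adamts1 (118 FPKM, 6.16-fold over skeletal muscle) and Mmp17 (42.6 FPKM, 4.13-fold over the brain) were also called. Mmp17 also passed with the second table, where the lung stood at 12.4 FPKM for Adamts8 and 56.7 for Adamts1 and the bone at 235 for Serpine2. The gelatinase Mmp9 stood at 1.25 FPKM.

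Hox genes, which are expressed along the body axis in the order of their position in the cluster, gave a profile of levels. Of 39 genes, 25 were at 1 FPKM or more and 8 had 0 reads. The aorta was highest for 3 (against 10.3% of all genes tested), and 0 were called (against 1.67%). Hoxa7 had the highest level in the aorta at 37.0 FPKM, with 54.3 in the colon and 0.924 in the stomach. Hoxa3 stood at 27.8 FPKM, 2.81-fold (2.38 to 3.34) over the colon, and Hoxa2 at 4.37 FPKM, 1.54-fold (1.11 to 2.16) over the colon, was also highest there. In the Hoxb cluster Hoxb6 (16.8 FPKM against 69.9) and Hoxb2 (11.3 against 16.1) were below WAT. The most posterior genes were near 0 in the aorta and not in the colon, with Hoxa13 at 0.239 against 49.2 FPKM and Hoxb13 at 0 reads against 155 FPKM.

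**Figure D5:**
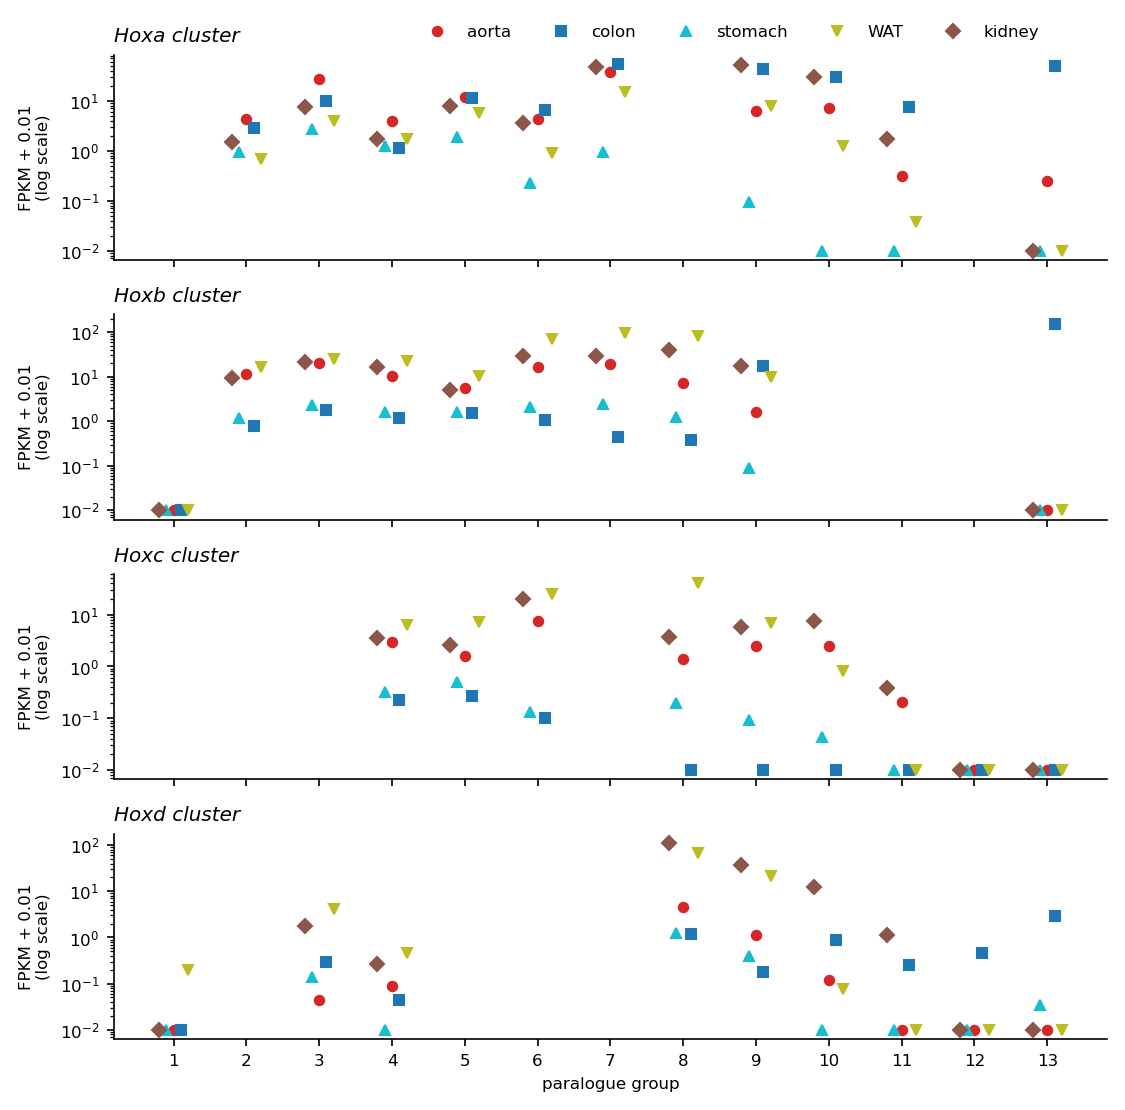
Level of most Hox genes (FPKM plus 0.01, log scale) by cluster and paralogue group in aorta, colon, stomach, WAT and kidney, 1 library each. Aorta values are highest at Hoxa7 and Hoxa3, and Hoxa13 and Hoxb13 stand near 0 in the aorta and high in the colon.

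Against colon and stomach alone, the tissues of the table richest in visceral smooth muscle, the aorta was at least 4-fold higher than both for 1849 of 14099 genes, or 13.1%. The median log2 ratio over the higher of the pair was 0.09. Of the 20 contractile genes, 18 were above both and 15 were 4-fold above both. The exceptions were Actg2 and Des. Of the 20 elastic fibre genes 17 were above both and 13 were 4-fold above both, with Eln 95.8-fold (86.5 to 106) over the colon and 87.0-fold (80.2 to 94.5) over the stomach. Itga8 was 822-fold (643 to 1070.2) over the colon. For Sost, colon and stomach each had 0 reads.

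Outside the lists, the called genes with the largest ratios at 10 FPKM or more included secreted and membrane proteins. Susd5, a sushi domain protein, stood at 234 FPKM against 0.0315 to 1.95 (median 0.421), 119.7-fold (101 to 143) over the testis. Pi15, a peptidase inhibitor, stood at 66.6 FPKM, 39.5-fold (34.3 to 45.7) over WAT. Nov, a matrix protein of the CCN family, stood at 551 FPKM, 33.9-fold (31.0 to 37.0) over the colon. Olfr1033, annotated as an olfactory receptor gene, stood at 123 FPKM, 39.4-fold (32.9 to 47.5) over the heart. Prdm6, a smooth muscle repressor of transcription, stood at 36.6 FPKM, 34.6-fold (25.0 to 49.4) over the eye, but at 11.3 FPKM in the lung. Cped1 stood at 547 FPKM, 23.5-fold (22.0 to 25.3) over WAT.

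Among the called genes with the highest aorta level were, beside Mgp, Bgn and the contractile genes, genes of the cytoskeleton and of cell adhesion. Vim, the intermediate filament vimentin, stood at 3905 FPKM, 7.07-fold (6.94 to 7.20) over WAT. Flna, the actin crosslinker filamin A, stood at 3249 FPKM, 19.1-fold (18.7 to 19.5) over WAT. Csrp2, a LIM protein of smooth muscle, stood at 2031 FPKM, 6.42-fold over the colon. Fblim1, a filamin-binding LIM protein, stood at 1607 FPKM, 9.80-fold (9.41 to 10.2) over the heart, and Itgb1, the integrin beta 1 chain, at 1355 FPKM, 4.70-fold over the parathyroid.

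Non-coding genes of smooth muscle were among those called. Carmn, the host transcript next to the miR-143 and miR-145 genes, stood at 84.6 FPKM, 20.6-fold (16.7 to 25.7) over the stomach. Mir143 stood at 267 FPKM from 250 reads, 12.5-fold (7.44 to 22.7) over the colon, and Mir145a at 668 FPKM from 694 reads, 12.1-fold (8.90 to 16.9) over it. These are reads of total RNA at the hairpin loci, and mature miRNAs were not measured. Of the clusters that hold miR-23 and miR-27, Mir23b stood at 101 FPKM from 111 reads, 12.5-fold (6.53 to 26.7) over the eye. It lies inside a host gene read on the same strand. Mir23a stood at 11.7 FPKM from 13 reads, 4.88-fold (1.10 to 44.5) over the colon, which had 2 reads. Mir27a stood at 3.87 FPKM from 5 reads. Mir27a had 0 reads in the 12 other tissues, and the lower bound of its fold over the eye was 1.03. The mature sequences from RefSeq (GRCm38.p6) are shown to let the seeds be compared, with bases 2 to 8 in capitals.
mmu-miR-23a-3p: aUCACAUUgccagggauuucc
mmu-miR-27a-3p: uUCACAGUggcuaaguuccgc
mmu-miR-27b-3p: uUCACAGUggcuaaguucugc
The miR-27a and miR-27b arms share a seed, and the miR-23a arm shown differs from it. Mir27b itself was at 0 in all 13 tissues, so its sequence is shown for the seed alone. The counts behind Mir23a and Mir27a are small, and 20 of all called genes rested on 10 reads or fewer.

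When the 6 tissues of the second table were added on the same scale, fewer genes stayed called. At least 4-fold above the highest of 18 other tissues were 149 of the 14099 genes (1.06%). Adding tissues can only end calls, so all 149 were among the 235. For the 86 that did not, the highest of the 18 other tissues was not always above the aorta. Mgp, for example, stood at 5272 FPKM in the aorta and 1466 in the lung. That highest other tissue was the lung for 33 genes, the skin for 19, the bone for 17, BAT for 10, the spleen for 5 and the intestine for 2. Acta2, Tagln, Myl9, Myh11, Lmod1, Itga8, Eln, Sost, Susd5 and Kcnmb1 remained called. Among the 18 other tissues, the lung was highest for Mgp, Mfap4, Adamts1, Adamts8 and Prdm6, the skin for Lox and the bone for Emilin1 and Serpine2. Of the 235 genes 130 overlap another gene and 35 overlap another called gene, and whether the counting used strand is not given, so reads of such pairs may not be told apart.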

How the data were processed

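Total RNA was extracted with Trizol, cleaned on a column with DNase treatment and checked on a Bioanalyser, per the labels' protocols. How libraries were made, whether they kept strand, and which aligner and build were used is not given in the sources used here. Per the submitters' processing notes, DESeq2 was a tool, without its version. The authors deposited FPKM for 13 tissues and raw read counts for 6 more, each with 1 library. The FPKM are per 1000000 reads assigned to genes, as read from the values of the deposited table. Whole reads were recovered from them within 0.001 reads, and served only for counting intervals. FPKM of the 6 tissues was computed anew from the counts as deposited, on the gene lengths of the first table. In a group table of FPKM, which the authors also deposited, 12 columns were identical and kidney was the authors' mean, used as an alternative.

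Ratios had 0.1 FPKM added, and folds in the text are plain FPKM ratios with exact Clopper-Pearson intervals. In the aorta a floor of 3 reads is 0.202 reads per 1000000. The rule was tested on simulated data. List medians are over members at 1 FPKM or more in any of the 13 tissues. The members and gene lists were chosen with earlier results of these data known. Named genes are the 6 markers, the 12 called genes with the largest ratio at 10 FPKM or more, the 12 with the highest aorta level and list members. Genes at the threshold, those with a promoter match, the miRNA genes with Carmn, and the gene families were chosen after their values were seen. Of the gene IDs, 99.9% were found in GENCODE M21 (GRCm38), and promoter and miRNA sequences are from RefSeq GRCm38.p6. Some genes under these rules are not reported here. Alternatives covered pseudocount, level, fold, scaling and the libraries compared. The software was Python 3.11.15 with scipy 1.17.1, numpy 2.4.6, pandas 2.3.3 and, for plots, matplotlib 3.10.9.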

Additional observations from a re-analysis of the deposited data

How the results depend on the processing

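The count of 235 called genes became 103 at an 8-fold threshold, 149 with 19 tissues and 358 without the eye, kidney and parathyroid libraries, and lay between 177 (pseudocount of 1 FPKM) and 284 (no minimum level) under the other settings. Elastic fibre calls fell from 8 to 2 at 8-fold and to 4 with 19 tissues, and contractile calls stayed between 7 and 11. Calls against colon and stomach went from 1849 to 1021 at 8-fold and to 1138 with a pseudocount of 1 FPKM. The settings for that comparison and for the gland transcripts, and the one without 3 libraries, were chosen after seeing the data. With 19 tissues the median log2 ratio turned to -0.80 for collagens and proteoglycans and to -1.10 for TGF-beta and BMP genes, and the log2 ratio to -0.032 for Lox and -0.35 for Mfap4. Less the parathyroid share, the TGF-beta median was -0.071. The protease median turned to 0.047 without WAT and to 0.43 without the eye, kidney and parathyroid, where the parathyroid list median was 0.19, since its reference library was left out. Otherwise the causes were not tested. Median-of-ratios and upper quartile scaling moved the median log2 ratio of all genes from -1.38 to -1.51 and -1.34, and the gland share from 8.77% to 10.2% and 11.3%. No paired analysis was possible because each tissue had 1 library, which also leaves no replicate to leave out. Depth limits the 20 called genes with 10 reads or fewer, most of them miRNA genes or predicted models.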

Other observations

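Integrins, the receptors through which cells hold the matrix, were looked at as a family after Itga8 and Itgb1 had been seen, so their count supports nothing. Of 26 subunit genes, 18 were at 1 FPKM or more. The aorta was highest for 11 (against 10.3% of all genes tested), and 7 were called (against 1.67%). Besides Itga8 and Itgb1 these were Itga9 (424 FPKM, 16.0-fold over the heart), Itgb5 (468 FPKM, 5.11-fold over the kidney), Itga5, the fibronectin receptor chain (158 FPKM, 5.77-fold over the colon), Itgb3 (26.5 FPKM, 5.75-fold over the thymus) and Itga10 (8.45 FPKM, 6.44-fold over the eye). With 19 tissues 3 remained called, Itga8, Itga9 and Itga5, and Itgb3 was higher in the bone at 78.9 FPKM.

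Olfactory receptor genes were silent in the aorta library with few exceptions. This family too was chosen after values had been seen, so its count supports nothing. Of 1107 genes 1074 had 0 reads and 3 were at 1 FPKM or more, against 14099 of all 54532 gene rows. Of these 3, Olfr1033 and Olfr224 (6.41 FPKM, 37.9-fold over the heart with an interval of 14.5 to 141) were called (against 1.67% of all genes tested). Both stayed called with 19 tissues. Whether either transcript codes for a receptor protein was not tested.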
